A study of Mus musculus with 2 samples.

Results

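The 10 genes described here encode subunits of the transcription factor NF-kB, members of its inhibitor family IkB, and a feedback enzyme. The subunit genes were Nfkb1, Nfkb2, Rel, Rela and Relb. Those of the IkB family were Nfkbia, Nfkbib, Nfkbie and Nfkbiz, of which Nfkbiz is atypical, as described below. Tnfaip3 encodes the ubiquitin-editing enzyme A20. The genes were taken by symbol from a table of 22886 genes, and all 10 were found, each in 1 row. PolyA RNA was sequenced in 2 libraries of sorted cells, named aerobic tumor cells in the labels, from subcutaneous tumors of Lewis lung carcinoma (LLC), a mouse lung tumor, in wild type C57BL/6 mice. One group had received vehicle (Veh) and the other clodronate (Clod), a drug that removes macrophages when it is given in liposomes. There was 1 library per condition, so that no difference below has a check against replicates and no test was made. The labels give neither the age of the mice, nor the dose or time of the injection, nor how aerobic cells were gated, nor how many mice a library holds.

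NF-kB is a family of dimers that waits in the cytoplasm, bound to IkB proteins. Signals from receptors for tumor necrosis factor, interleukin-1 or microbial products activate the IkB kinase (IKK) complex, the IkB proteins are degraded, and the dimers enter the nucleus. Among the genes they switch on are the inhibitors themselves, which end the response, and in macrophages many genes for cytokines and chemokines.

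The promoters of these genes are shown because several of the inhibitors are known targets of the factor that they inhibit. RefSeq windows from 250 bases before to 50 bases after a transcript start (build GRCm38.p6) were matched for 7 of the 10 genes, in 10 windows, and none was printed for Nfkb1, Relb and Nfkbiz. Both strands were searched for the 10-base NF-kB consensus, which is 3 G, a purine, any 2 bases, 2 pyrimidines and 2 C. Of the 7 genes 5, or 71.4%, held at least 1 match in a window. Among all 27025 genes with a window the share was 9.55%, and among the 8366 of them that averaged 1 RPKM or more here it was 12%. Over all 32851 windows it was 8.46%. The sequences below run 5′ to 3′ on the strand of the gene and end at the base before the transcript start. Capitals mark matches to the consensus on either strand, and matches that overlap run together.
Nfkbia, chr12:55492648-55492777, minus strand: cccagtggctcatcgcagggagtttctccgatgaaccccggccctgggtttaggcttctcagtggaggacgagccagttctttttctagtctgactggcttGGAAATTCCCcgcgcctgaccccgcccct
Nfkb2, first of 3 starts, chr19:46304607-46304736, plus strand: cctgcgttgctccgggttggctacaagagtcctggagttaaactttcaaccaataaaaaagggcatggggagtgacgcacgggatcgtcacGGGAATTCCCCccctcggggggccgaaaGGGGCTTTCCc
Rel, chr11:23770970-23771099, minus strand: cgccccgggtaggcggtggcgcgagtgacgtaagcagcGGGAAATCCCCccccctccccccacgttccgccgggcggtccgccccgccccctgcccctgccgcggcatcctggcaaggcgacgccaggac
Nfkbie, chr17:45555570-45555699, plus strand: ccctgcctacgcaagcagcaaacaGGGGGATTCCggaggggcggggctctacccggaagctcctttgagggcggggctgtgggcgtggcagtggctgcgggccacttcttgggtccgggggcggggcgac
Tnfaip3, first of 2 starts, chr10:19015411-19015540, minus strand: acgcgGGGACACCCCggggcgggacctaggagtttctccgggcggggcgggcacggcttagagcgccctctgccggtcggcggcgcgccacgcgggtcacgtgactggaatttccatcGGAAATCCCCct
Nfkbib, chr7:28766645-28766774, minus strand: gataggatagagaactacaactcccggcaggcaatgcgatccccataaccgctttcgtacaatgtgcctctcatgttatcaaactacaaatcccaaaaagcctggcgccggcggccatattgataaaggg

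The match in the Nfkbia promoter, GGAAATTCCC, ended 20 bases before the transcript start. In Rel the matches GGGAAATCCC and GGAAATCCCC overlapped by all but 1 base, and the letters of the latter occurred again in Tnfaip3, where they ended 3 bases before the start. Nfkb2 held matches in the windows of all 3 of its starts, of which the second and the third overlap and share 1 match. Among those of its first start was GGGAATTCCC, which reads the same on both strands. The windows of Nfkbib and Rela held none, which says only that these letters are not in these windows. Of the other lists described below, 7 of the 12 further feedback genes with a window held a match (58.3%), as did 9 of the 21 target genes with a window (42.9%), whereas 3 of the 18 adaptors and ligases did (16.7%). A match is a description of the sequence and was not tested as a binding site.

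**Figure D1:**
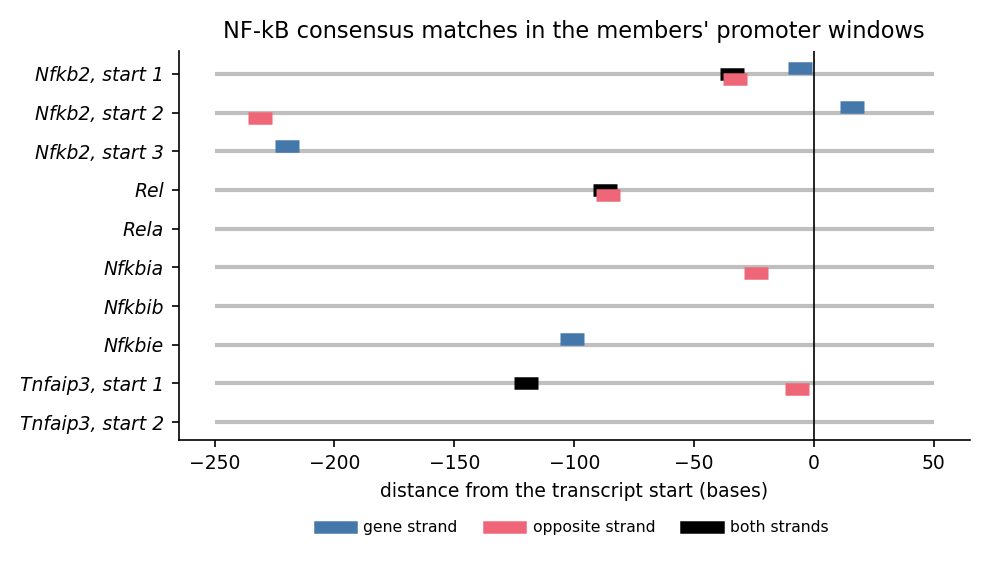
Matches to the NF-kB consensus in the RefSeq promoter windows of 7 of the 10 genes, drawn by distance in bases from the transcript start (vertical line); each grey line is 1 window and colors give the strand of the match. Rela, Nfkbib and the second start of Tnfaip3 have no match, and matches of Nfkbia, Nfkb2 and Tnfaip3 lie just before the start.

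Levels are given in RPKM, reads scaled to transcript length and to library size, which puts genes of unlike length on 1 scale but does not remove differences that follow GC content. All 10 genes were expressed in both libraries, from 23.2 RPKM for Nfkbib to 283 RPKM for Nfkbiz in the vehicle library and from 30.7 RPKM for Relb to 313 RPKM for Nfkbia in the clodronate library. The 10982 genes that averaged 1 RPKM or more were kept, with all 10 members among them. Log2 ratios below compare clodronate with vehicle after 1 RPKM was added to each value. None of the members reached a 2-fold difference. Of the genes kept, 6.95% were higher and 6.77% lower with clodronate by 2-fold or more. Among the 5913 genes that averaged 10 RPKM or more, as all 10 members did, 202 were higher and 214 lower. At such shares, a count of 0 among 10 genes does not set the members apart. At 1.5-fold, 1 member (Nfkbib) was higher and 0 were lower, against 16.6% and 16.3% of the genes kept. The log2 ratio was above 0 for 6 of the 10 members and for 51.6% of the genes kept. The median ratio of the members was 0.13 and that of all genes kept was 0.02, with quartiles of the genes kept at -0.38 and 0.40. In bulk RNA, fewer cells that express a gene and less of its RNA per cell cannot be told apart.

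**Figure D2:**
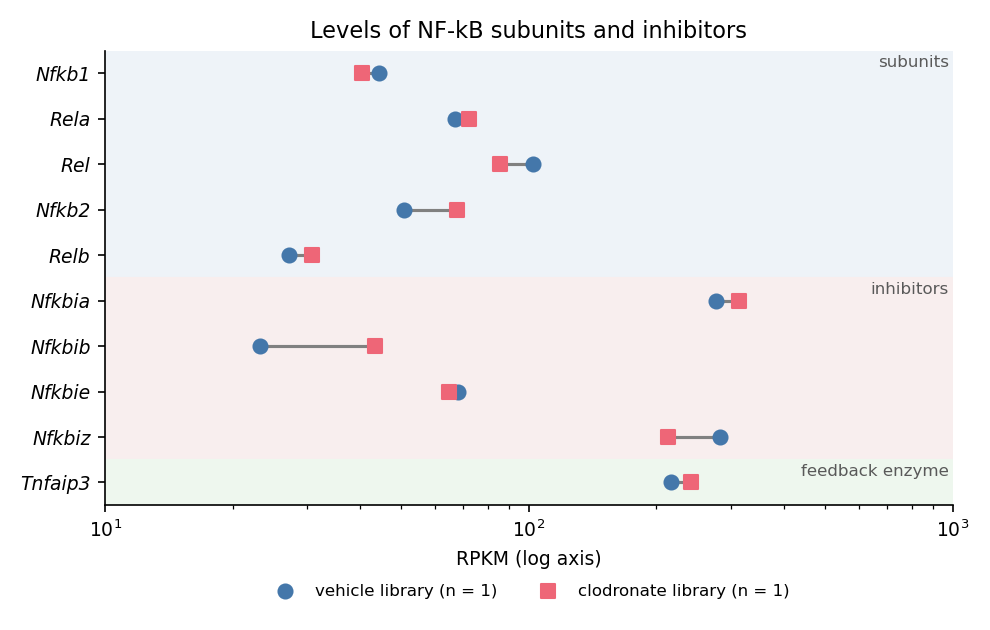
RPKM of each gene in the vehicle library (circle) and the clodronate library (square) on a log axis, with 1 library per condition and no error bars. Nfkbia, Nfkbiz and Tnfaip3 lie above 200 RPKM in both libraries, and Nfkbib has the longest line between its points, from 23.2 to 43.4 RPKM.

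Ratios in these libraries rose with the GC content of the transcript, with a median log2 ratio of -0.24 for the bin of lowest GC content among 10 and of 0.29 for the bin of highest. The members ran from 42.5% GC (Rel) to 61.1% GC (Relb), so each ratio is also given after the medians of bins of GC content and of length were subtracted. Loci below are those of the files, in the build mm9. After this correction the median of the members was -0.11, and 4 of the 10 ratios were above 0.

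Rel (chr11:23641728-23670970), which encodes c-Rel, had the highest level of the 5 subunits in both libraries, with 102 RPKM with vehicle and 85.6 RPKM with clodronate. Its log2 ratio was -0.25, and -0.22 after the correction. Rela (chr19:5637489-5648130), which encodes p65, the main activating subunit of the canonical pathway, had 67.1 and 72.2 RPKM. Its ratio of 0.11 changed sign under the correction, to -0.18. Nfkb1 (chr3:135247618-135354511) encodes the precursor p105, from which the DNA-binding partner p50 is made, and had 44.4 and 40.4 RPKM, a ratio of -0.13, or -0.25 after the correction. The order of these 3 genes, Rel above Rela above Nfkb1, was thus the same in both libraries, and the level of Rel was 1.52 times that of Rela with vehicle and 1.19 times with clodronate. This shift is one of uncorrected RPKM, since the corrected log2 ratios of Rel (-0.22) and Rela (-0.18) lie close together. Sums, shares and levels of one member relative to another are likewise uncorrected below.

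Nfkb2 and Relb belong to the non-canonical pathway, in which the precursor p100, the product of Nfkb2, holds RelB until it is processed to p52. Nfkb2 (chr19:46379226-46401646) had 50.7 RPKM with vehicle and 67.7 RPKM with clodronate, a log2 ratio of 0.41 that stood at 0.08 after the correction. With 59.2% GC its transcript is among those for which the correction is large. The file places Psd in the same locus as Nfkb2, with 4.42 and 6.66 RPKM. Relb (chr7:20191570-20214787) had 27.2 and 30.7 RPKM, the lowest level of the subunits in both libraries, and its ratio of 0.17 changed sign to -0.05 after the correction. Nfkb2 was at 1.14 times the level of Nfkb1 with vehicle and at 1.67 times in the clodronate library. The 5 subunits together summed to 292 and 297 RPKM. Rel made up 35.0% of this sum with vehicle and 28.9% in the clodronate library, and Nfkb2 made up 17.4% and 22.8%. The shares follow the uncorrected ratios of Rel and Nfkb2, of which that of Nfkb2 falls to 0.08 under the correction.

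Nfkbia (chr12:56590395-56593634) encodes IkBα, the inhibitor that is degraded and made anew within a response, and it was the second highest of the 10 members with vehicle and the highest in the clodronate library. It had 277 and 313 RPKM, which put it in the top 3.04% and 2.68% of the genes kept. The log2 ratio was 0.18, or 0.21 after the correction. The level of Nfkbia was 4.13 times that of Rela, its main partner, with vehicle and 4.33 times in the clodronate library. Nfkbie (chr17:45692664-45700117), which encodes IkBε, had 68.2 and 64.8 RPKM and a ratio of -0.07, or -0.19 after the correction.

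Nfkbib (chr7:29541192-29551543) encodes IkBβ and had the largest ratio of the 10 members. It stood at 23.2 RPKM with vehicle and 43.4 RPKM with clodronate, a difference of 1.87-fold and a log2 ratio of 0.87. It was the lowest of the members in the vehicle library, at rank 3167 of the 10982 genes kept, and at rank 1862 in the clodronate library. Of all genes kept its ratio was at percentile 91.0, and of the 5913 genes that averaged 10 RPKM or more 95.0% had the same or a lower ratio. After the correction the ratio was 0.66, and under the other alternatives it ran up to 0.90. In mm9 the locus of Nfkbib ends 226 bases from that of Sirt2, which had 67.8 and 82.1 RPKM (log2 ratio 0.27), and the file lists Gm6537 in the same locus with 0.171 and 1.78 RPKM. Whether reads of these neighbours were counted for Nfkbib was not tested.

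The inhibitors that hold dimers in the cytoplasm can also be viewed as a pool of mRNA. Nfkbia, Nfkbib and Nfkbie together had 368 RPKM with vehicle and 421 RPKM with clodronate, which was 1.26 and 1.42 times the sum of the subunits. Nfkbia made up 75.2% and 74.3% of this pool. The share of Nfkbib was 6.30% with vehicle and 10.3% in the clodronate library, and that of Nfkbie was 18.5% and 15.4%. For every unit of Nfkbib there were 11.9 units of Nfkbia with vehicle and 7.21 in the clodronate library.

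Nfkbiz (chr16:55811489-55838754) encodes IkBζ, an atypical nuclear member of the family that binds p50 and is needed for a late set of target genes. With 283 RPKM it was the highest of the 10 members in the vehicle library, and with 213 RPKM it was the third with clodronate. The log2 ratio of -0.41 was the lowest of the members, at percentile 23.5 of the genes kept, and it was -0.44 after the correction. Nfkbiz and Nfkbia had nearly the same level in the vehicle library, 1.02 to 1, whereas in the clodronate library Nfkbiz stood at 0.681 of Nfkbia. Il6 and Lcn2 are known in macrophages as genes that need IkBζ. Il6 had 4.93 and 1.81 RPKM, a log2 ratio of -1.08 that stood at -0.72 after the correction. Lcn2, a gene picked with its values known, was at 0 in both files. Il12b, also of the target list below, was too low to be kept and went the other way, from 0.0415 to 1.07 RPKM. Whether such genes follow Nfkbiz was not tested.

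Tnfaip3 (chr10:18720716-18735216) encodes A20, which removes and rebuilds ubiquitin chains on signaling adaptors and so shuts off IKK. It had 216 RPKM with vehicle and 241 RPKM with clodronate, and was in the top 3.72% and 3.45% of the genes kept. The log2 ratio was 0.16, or 0.10 after the correction. Its level relative to Nfkbia was 0.779 with vehicle and 0.770 in the clodronate library.

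**Figure D3:**
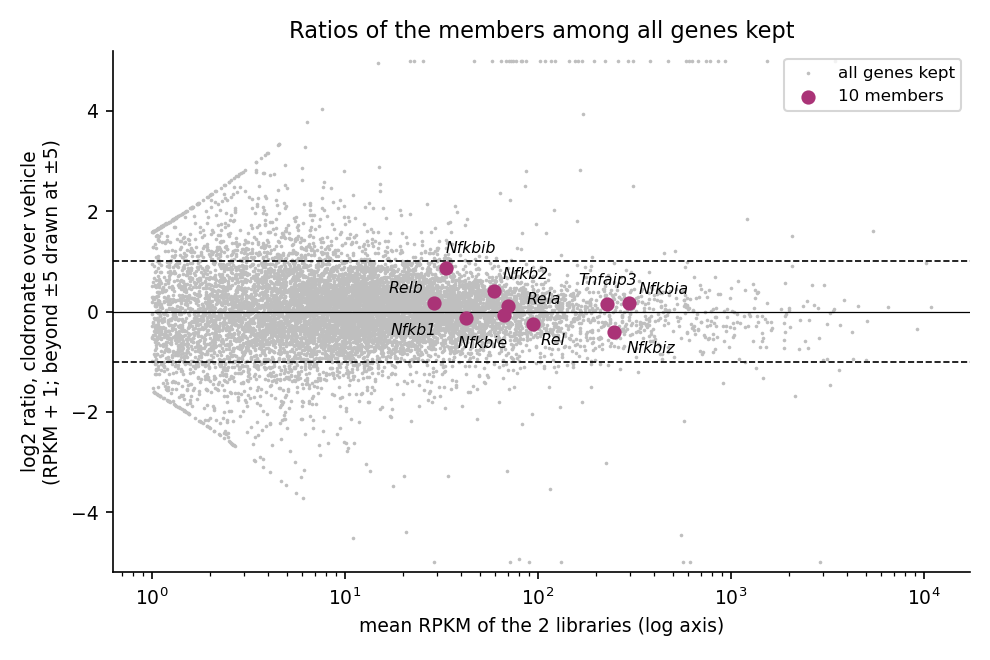
Log2 ratio of clodronate over vehicle RPKM + 1 against the mean RPKM of both libraries (log axis) for the 10982 genes kept (grey) and the 10 members (purple), with dashed lines at 2-fold. All 10 members lie between the dashed lines, Nfkbib nearest to the upper line at 0.87 and Nfkbiz lowest at -0.41.

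The size of 1 read could be estimated from low values. In loci with a single transcript of at least 3000 bases, RPKM times length gathered at whole multiples of 0.0765 per kilobase with vehicle and 0.0930 per kilobase in the clodronate library, and 82.2% of 169 and 75.4% of 317 low values lay within 0.1 of a whole number of reads. At these sizes the vehicle values of the members rest on about 630 (Nfkbib) to 14200 (Nfkbiz) reads and the clodronate values on about 730 (Relb) to 11300 (Tnfaip3) reads. Counting error alone, as 1 SD, is then at most 4.0% of a value. For Nfkbib it is about 4.0% of the vehicle and 3.23% of the clodronate value. These are estimates that use transcript lengths of GENCODE M21, and they leave out the spread between mice, sorts and library preparations, which 1 library per condition cannot show.

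**Figure D4:**
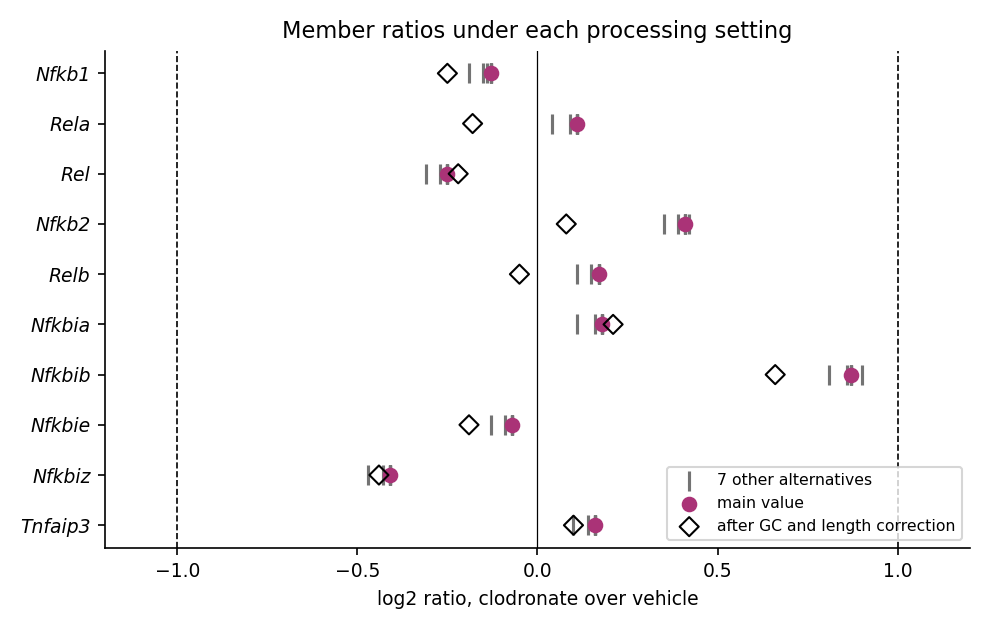
Log2 ratio of clodronate over vehicle for each member as reported (filled circle), corrected for GC content and length (open diamond) and under 7 other processing alternatives (grey ticks), with dashed lines at 2-fold. The diamonds of Rela (-0.18) and Relb (-0.05) lie on the other side of 0 from their circles (0.11 and 0.17), and no setting carries a member past 2-fold.

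The rest of the pathway was described by 6 lists of 105 genes, of which 94 were kept. By 2-fold or more, 2 of these were higher (2.13%) and 8 lower (8.51%) with clodronate. Of all genes kept, 6.95% were higher and 6.77% lower. The median log2 ratio of the 94 genes was -0.06. These values are uncorrected, and the counts of the target list change under the correction, as given below. Of the 16 further inhibitors and feedback genes, 0 passed 2-fold in either direction, with a median of -0.09. Those with the highest levels were Nr4a1, a nuclear receptor of the early response, with 303 and 294 RPKM, Nfkbid, which encodes the nuclear inhibitor IkBNS, with 153 and 127 RPKM, and Tnip2, which encodes a partner of A20, with 72.2 and 44.8 RPKM. The list had a median level of 25.6 RPKM with vehicle and 28.4 RPKM with clodronate, and the ratios ran from -0.68 to 0.91.

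Of the 12 genes of the IKK complex and its kinases, 0 passed 2-fold and the median was -0.20. Ikbkb, the catalytic kinase of the canonical pathway, had 50.3 and 43.3 RPKM, and Tab2, which links ubiquitin chains to the kinase TAK1, had 115 and 97.4 RPKM. Ikbke, an IKK-related kinase, had 37.8 and 58.4 RPKM. These 3 genes had the highest levels of the list. Its ratios ran from -0.78 to 0.62, with 4 above 0 and 8 below. Of the 24 adaptors and ubiquitin ligases 0 were higher and 3 were lower past 2-fold, against 6.95% and 6.77% of all genes kept. Their median was 0.08. Tradd, the adaptor of the TNF receptor, had 16 and 7.0 RPKM. Btrc, the ligase subunit that recognises phosphorylated IkB, had 6.10 and 2.29 RPKM. Irak1, a kinase of the Toll-like and interleukin-1 receptor pathway, was listed at 1054 RPKM with vehicle and 47.1 RPKM with clodronate, a log2 ratio of -4.45, and the cause of the high vehicle value was not tested. Birc3, a ligase and known target, had 59.3 and 75.3 RPKM, and Irak2 had 44.3 and 49.9 RPKM.

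At the cell surface, Tlr2, the receptor for bacterial lipoproteins, had 460 RPKM with vehicle and 200 RPKM with clodronate (log2 ratio -1.2). It was the only one of the 12 receptors kept that passed 2-fold. Of all genes kept, 6.95% were higher and 6.77% lower by as much. Cd14, a coreceptor for lipopolysaccharide, had 1560 and 1045 RPKM, and Tnfrsf1b, a receptor of TNF, had 103 and 90.4 RPKM. The median log2 ratio of the 12 receptors was -0.05, with 4 above 0 and 8 below. Of the 10 ligands, 3 were kept. Il1b had 278 RPKM with vehicle and 97.2 RPKM with clodronate, a log2 ratio of -1.51, while Tnf had 92.9 and 84.3 RPKM and Il1a had 14.1 and 14.8 RPKM. Lta, Cd40lg and Tnfsf11, which are made mainly by lymphocytes or stromal cells, were listed at 0 in both libraries.

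The 27 target genes kept had a median log2 ratio of 0.07. By 2-fold or more 2 were higher and 3 lower, against 6.95% and 6.77% of all genes kept. Plau, which encodes urokinase, had 19.0 and 65.2 RPKM (1.73), and Ccl2, a chemokine for monocytes, had 311 and 720 RPKM (1.21). Lower in the clodronate library were Il6 (-1.08), Clec4e (-1.05), a receptor for mycobacterial lipids with 93.1 and 44.3 RPKM, and Bcl2a1b (-1.09), a survival gene with 57.7 and 26.6 RPKM. Once corrected for GC content and length, these 3 no longer reached 2-fold, with -0.72, -0.80 and -0.66, whereas Cxcl10, a chemokine for T cells named with its values known, went from 0.74 to 1.1. After the correction 3 target genes were thus higher by 2-fold or more and 0 were lower, and the median of the list was 0.06. Bcl2a1b has near-identical copies between which reads can be split, and its value is uncertain. The chemokines Cxcl2, with 724 and 564 RPKM, and Cxcl1, with 539 and 652 RPKM, had the highest levels of the list together with Ccl2. Without the correction the other 22 target genes stayed within 2-fold, and whether the list differs from the members was not tested.

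**Figure D5:**
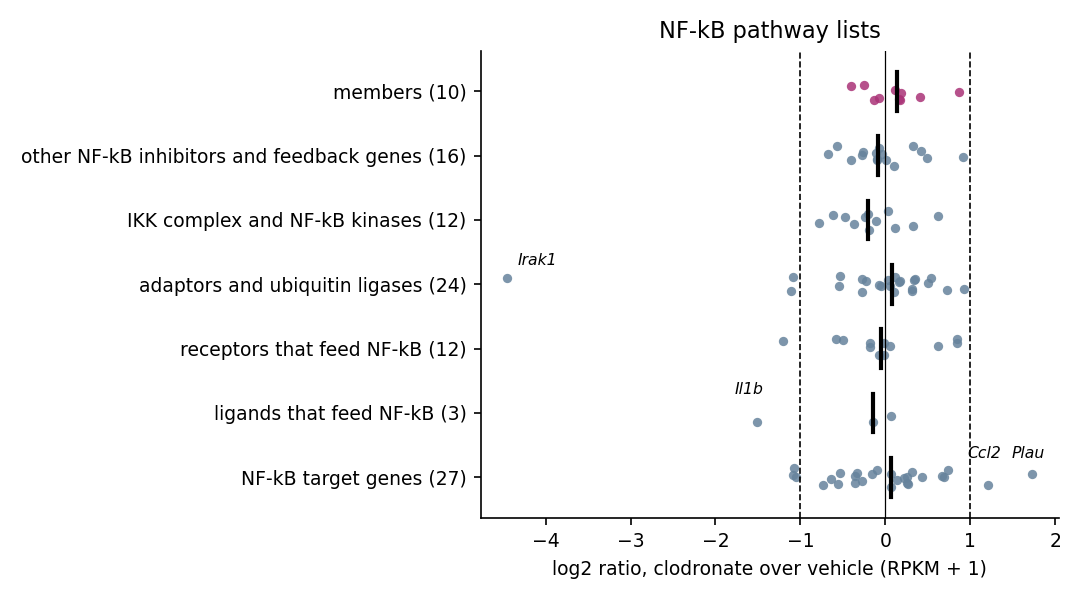
Log2 ratio of clodronate over vehicle RPKM + 1 for each gene kept (point) in the members and 6 pathway lists, with the number of genes in brackets, the median as a black bar and dashed lines at 2-fold. The medians lie between -0.20 and 0.13, and Irak1 at -4.45 is the lowest point.

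The labels were set against marker genes. All 11 macrophage markers were kept, at medians of 446 and 510 RPKM, and Lyz2 had 10534 and 11189 RPKM. The 6 epithelial markers summed to 12.8 and 11.0 RPKM, and Epcam, Krt19 and Cldn4 were listed at 0 in both. The other 3 were kept at low levels, with Cdh1 at 6.14 and 6.44 RPKM and Krt18 at 2.97 and 3.19 RPKM. At these levels epithelial genes gave no clear mark of the labelled tumor cells, whereas the macrophage markers summed to 21692 and 21326 RPKM. Levels of the members can therefore not be read as those of tumor cells alone, and the libraries are named by their labels. A growth protocol in the labels conflicts with them by naming a blood progenitor line. The 6 progenitor markers summed to 46.3 and 38.1 RPKM, of which Lmo2 had 39.5 and 33.0 RPKM, with Gata1 at 0 in both. Dendritic cells are known for Relb, and their 9 markers summed to 33.4 and 40.7 RPKM. Of the 6 kept, 2 were higher by 2-fold or more, against 6.95% of all genes kept. The dendritic list had 3 ratios above 0 and 3 below, with a median of -0.04. Handling of tissue is known to raise genes of dissociation stress along with Nfkbia and Nfkbiz. Of 13 such genes 11 had ratios above 0 without the correction, against 51.6% of the genes kept. Their median was 0.30, with sums of 3259 and 3794 RPKM. Of the 6 fibroblast markers 5 had ratios below 0, with sums of 154 and 75.1 RPKM. The 5 neutrophil markers found summed to 43.1 and 45.1 RPKM, with S100a9 and Retnlg at 0. Of these sums Csf3r had 26.4 and 19.3 RPKM, and S100a8 had 12.7 and 23.1 RPKM. T and NK cell markers, 8 found, summed to 11.1 and 9.76 RPKM with Cd3e, Cd3g and Ncr1 at 0. Cd4 alone had 10.3 and 7.72 RPKM. The 6 endothelial markers summed to 2.37 and 7.40 RPKM with Tek, Emcn and Cldn5 at 0. Proliferation genes, 10 in all, had a median log2 ratio of 1.14, and 12 genes of the interferon response had 1.09, both uncorrected. In each list 6 were higher by 2-fold or more, against 6.95% of the genes kept. The part of these cells, of their growth or interferon response and of handling in the values of the members was not tested.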

How the data were processed

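PolyA RNA of 1 vehicle and 1 clodronate library was analysed, grouped by the labels. The files that the authors deposited give RPKM, which are scaled to transcript length and library size, for 23170 loci in each. Per the submitters' processing notes, CASAVA 1.8.2, TopHat2 2.0.9, Bowtie 0.12.9, Cufflinks 2.2.1, Cuffdiff and the build mm9 were used, with no role or order given. RPKM are not counts, and read totals are not given in the sources used here. The paper describes another experiment and was used for none of these steps.

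RPKM were summed by symbol (26 symbols that had become numbers were replaced by their RefSeq accessions), which gave 22886 genes. Those that averaged 1 RPKM or more were kept. Ratios used a pseudocount of 1 RPKM, which understates changes of low genes. With 1 library per condition no test was run, and genes at least 2-fold apart were counted. Other settings tried were a pseudocount of 0.1, all genes without a filter, averages of 5 or 10 RPKM as the minimum, centring on the median, the same upper quartile, the highest row of a repeated symbol, thresholds of 1.5-fold and 3-fold, and subtraction of medians over 10 bins of GC content and 10 of length, which GENCODE M21 transcripts gave for 98.7% of the genes kept by RefSeq accession. The members and lists were chosen with earlier results of these data known. Named were all members and, from each pathway list, the 3 genes with the highest mean and every gene past 2-fold, and for each marker list up to 2 genes of high mean and those listed at 0. Outside this rule, Lcn2, Il12b, Cxcl10, the ligands at 0 and genes next to or within the loci of members were named with their values known. Synonyms of RefSeq (GRCm38.p6) were used for absent symbols. The ratio steps were tested on simulated data. Coordinates of promoters are those of GRCm38.p6 and were not combined with mm9. Python 3.11.15, numpy 2.4.6 and pandas 2.3.3 were used. One marker list is not reported here.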

Additional observations from a re-analysis of the deposited data

How the results depend on the processing

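No paired analysis was possible because vehicle and clodronate have a single library each. By 2-fold or more, 763 of the genes kept were higher and 744 lower with clodronate. The numbers changed to 346 and 356 when 5 RPKM was the minimum average, to 202 and 214 when it was 10 RPKM, to 314 and 255 at 3-fold and to 1828 and 1789 at 1.5-fold, where the settings by construction change how many genes can pass. At 1.5-fold 1 member, Nfkbib, was higher. The median log2 ratio of the members was 0.13, and -0.11 once corrected for GC content and length. The median of the ligand list was 0.00 with no filter, over more genes. The summed RPKM were 292 with vehicle and 297 with clodronate for the subunits, and 189 and 211 without Rel, the highest. For the 4 genes of the IkB family they were 652 and 634. Without the highest in each library they were 368 (without Nfkbiz) with vehicle and 321 (without Nfkbia) with clodronate, which are sums over unlike genes and are not compared. Without Nfkbiz in both they were 368 and 421. The alternatives for the pathway lists were chosen after seeing the data. All members are in 1 row, so the highest row of a repeated symbol could not change them, and all have a mean above 10 RPKM, so the filters could not either. Without replicates, the spread between mice is not known.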
